A study of Mus musculus with 3 samples.

Results

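The Kruppel-like factors are transcription factors that bind GC-rich and CACCC sequences through zinc fingers at their C-terminal end. The more variable N-terminal part of each protein recruits activators or repressors. In the liver they are known for passing hormonal, metabolic and mechanical signals to gene expression: Klf15 and Klf9 in hepatocytes answer glucocorticoids and fasting, Klf2 and Klf4 answer blood flow in endothelial cells, and Klf6 was described as an early gene of injured liver. The 9 genes described here are Klf2, Klf3, Klf4, Klf6, Klf9, Klf10, Klf11, Klf13 and Klf15. They were taken by gene symbol from the 23361 genes of the files, and all 9 reached 1 FPKM in 1 or more samples, as did 10792 genes in all.

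Expression was measured as FPKM, fragments normalised for transcript length and library, in liver RNA from C57BL/6J mice labelled male and 8 to 10 weeks old, with 6 mice per group and a fast of 12 h before surgery. The sham sample came from mice with a laparotomy and no occlusion, taken after 90 min. The WI sample came from mice whose vessels to the left and median lobes were clamped for 90 min (warm ischemia), and the IR sample from mice that then had 2 h of reperfusion (ischemia followed by reperfusion). All groups shared the strain, the fast, the anesthetic and the laparotomy. There is 1 library for each group, and whether it pools several mice is not stated in the sources used here. No difference below therefore has a replicate check, no test between groups was possible, and the 95% bounds given with each FPKM come from the Cuffdiff model of the counts and not from mice. The sham group had no sample at the time of the IR group, so reperfusion cannot be told apart from the longer time after surgery.

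The libraries did not all match the label for sex. Xist, the RNA that silences an X chromosome in females, stood at 18.9 FPKM in sham liver, 20.1 in WI liver and 1.29 in IR liver. The Y-linked Eif2s3y was listed at 0 in the sham and WI samples and reached 13.2 FPKM in the IR sample. A difference in sex between the libraries thus cannot be told apart from reperfusion in any comparison with the IR sample. None of the 9 genes lies on a sex chromosome. Of 5 hepatocyte markers, Ttr, Apoa1, Cps1 and Hnf4a were between 122 and 8799 FPKM in every sample, while Alb was listed at 0 in all of them with the status that Cuffdiff gives to loci with too many fragments. Loci with that status numbered 1, 1 and 7 in the sham, WI and IR samples, and their effect on the summed FPKM was not tested. The summed FPKM was 475754 in sham liver, 487912 in WI liver and 712423 in IR liver. Rescaling to a common sum therefore moved the median log2 change of all genes by -0.48 between IR and WI and by -0.51 between IR and sham. It moved the median between WI and sham by -0.03.

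The start regions of the genes are shown for the 3 members whose levels differed most between samples. Klf6 was the one gene that changed at least 2-fold, Klf9 had the lowest value relative to sham in the WI sample, and Klf13 had the lowest in the IR sample. Each line gives the 250 bases before the RefSeq start in GRCm38.p6, the build also called mm10, on the strand of the gene, at chr13:5861239-5861488 (+), chr19:23140976-23141225 (+) and chr7:63938916-63939165 (-). Capitals mark the CACCC box, the GC box (GGGCGG) and the E-box (CACGTG), read on both strands.

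Klf6: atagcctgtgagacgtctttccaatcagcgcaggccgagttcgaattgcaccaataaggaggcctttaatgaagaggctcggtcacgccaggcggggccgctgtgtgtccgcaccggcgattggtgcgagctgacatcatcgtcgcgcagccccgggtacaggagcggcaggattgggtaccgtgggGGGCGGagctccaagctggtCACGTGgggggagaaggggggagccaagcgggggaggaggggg

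Klf9: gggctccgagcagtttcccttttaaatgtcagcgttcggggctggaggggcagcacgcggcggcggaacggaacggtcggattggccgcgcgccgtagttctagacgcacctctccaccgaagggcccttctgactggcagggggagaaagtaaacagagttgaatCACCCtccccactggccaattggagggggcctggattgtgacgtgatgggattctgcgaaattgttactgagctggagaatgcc

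Klf13: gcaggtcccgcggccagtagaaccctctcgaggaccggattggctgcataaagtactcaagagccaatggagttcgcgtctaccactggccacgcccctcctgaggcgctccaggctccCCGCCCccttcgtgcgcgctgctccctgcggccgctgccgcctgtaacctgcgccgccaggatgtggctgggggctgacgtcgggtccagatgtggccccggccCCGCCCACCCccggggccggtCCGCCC

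RefSeq start regions were found for 8 of the 9 members, with Klf10 not among them. The GC box, a letter sequence that SP and Kruppel-like factors themselves bind, was in 7 of the 8 windows, and in 32.7% of all 32851 windows of the same length. Klf9 was the exception, and Klf3 held 6 of them. The CACCC box was in 5 of the 8 and in 52.0% of all windows. The E-box, which clock proteins of the basic helix-loop-helix type bind, was in 4 of the 8 (Klf4, Klf6, Klf11 and Klf15) and in 6.02% of all windows. In Klf6 its last base lay 38 bases before the start, and the last base of a GC box 58 bases before it. In Klf13 a GC box on the reverse strand ran into a CACCC box, with 1 base shared at 22 bases before the start, so their capitals run together. TGACG, the core of the cyclic AMP response element, was in 5 of 8 and in 17.8% of all windows. The full element TGACGTCA was in none of the 8 and in 1.55% of all windows, and the TATA box (TATAAA) in none of the 8 and in 12.4%. G and C made up 59.6% of the Klf9 window, 64.8% of the Klf6 window and 71.6% of the Klf13 window. The windows of Klf2, Klf3, Klf4, Klf11 and Klf15 held from 71.2% (Klf2) to 78.4% (Klf3). Over all windows the median was 52.4% and the 90th percentile 69.2%. The shares of all windows given above were not matched for G and C, so they do not show a trait of the family beyond base composition. These are matches of letters in short windows and show no binding.

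The members spanned a wide range of levels. In the sham sample Klf15 had the highest FPKM, 78.4, followed by Klf9 with 33.7, Klf3 with 20.8 and Klf13 with 12.2. Below them were Klf2 with 8.56, Klf10 with 7.06, Klf6 with 5.89, Klf11 with 4.56 and Klf4 with 1.49. Klf15 alone made up 45.4% of the summed FPKM of the 9 genes, and the 95% bounds of all 8 pairs of neighbours in this order overlapped. In the WI sample the order was the same except that Klf10 and Klf2 changed places, and the bounds of Klf15 and Klf9 were separate. In the IR sample Klf6 had moved up to rank 3, after Klf15 and Klf9. The other neighbours in the IR sample had overlapping bounds except Klf10 and Klf4 at the lower end. Klf15 exceeded 92.2% of the genes that passed the filter in the sham sample.

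**Figure D1:**
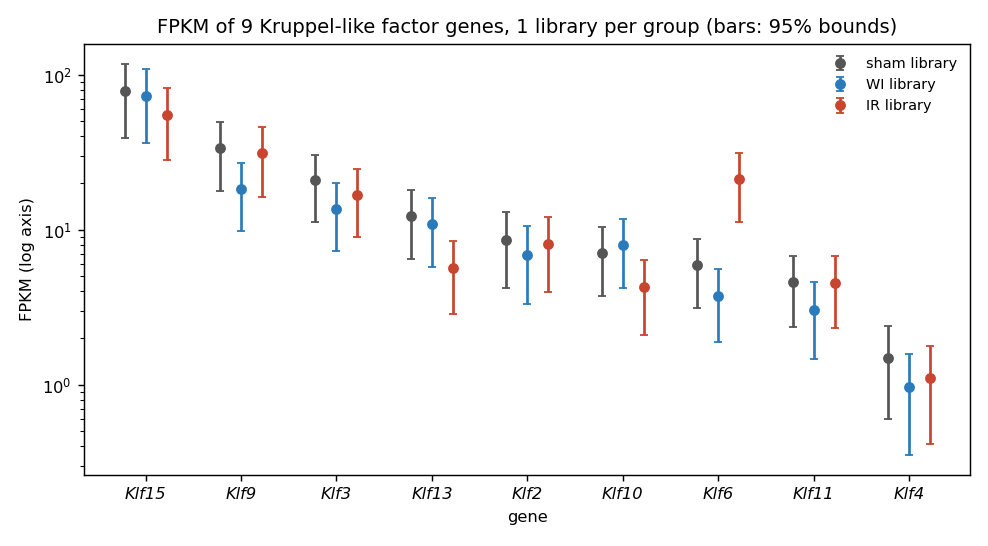
FPKM of the 9 genes on a log axis, in the order of the sham sample, with 1 point for each library (sham, WI, IR) and bars for the 95% bounds of the Cuffdiff model. The bars of Klf6 in IR liver (11.2 to 31.3) lie above those of the other samples, while the bars of each other gene overlap across the 3 samples.

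Klf6 was the one member past 2-fold in FPKM + 1 on the deposited scale. Its protein, also known as core promoter element binding protein, is induced early in activated stellate cells and in endothelial cells after injury. The gene lies on chromosome 13 of mm10 from 5861489 to 5870393. Klf6 stood at 5.89 FPKM in sham liver (95% bounds 3.11 to 8.66), 3.70 in WI liver (1.87 to 5.53) and 21.3 in IR liver (11.2 to 31.3). The IR sample was thus high and the sham and WI samples were low, with overlap between the latter only. Klf6 rose 5.75-fold in FPKM from WI to IR, a change of 2.24 in log2(FPKM + 1), with a 95% interval of 1.38 to 3.10. Against sham the IR sample was 3.61-fold higher, a change of 1.69 (0.82 to 2.57). Between WI and sham the difference was -0.55 with an interval of -1.36 to 0.26. The change from WI to IR exceeded that of 98.8% of all genes that passed the filter, and the change from sham to IR that of 98.1%. On the common-sum scale the changes were 1.85 and 1.21, and on that scale the bounds of the IR and sham samples overlapped.

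By the rule of at least 2-fold in FPKM + 1, 0 of the 9 members changed from sham to WI, 1 from WI to IR, and 1 from sham to IR, in both cases Klf6. Over all 10792 genes the same rule took 1.85%, 7.21% and 7.50%, so 1 of 9 is near the background. Without overlap of the 95% bounds there were again 0, 1 and 1 members, and 0.676%, 3.61% and 3.82% of all genes. The propagated 95% interval of the log2 change left out 0 for 0, 1 and 2 members (Klf6, and Klf13 between IR and sham), and for 2.50%, 9.48% and 10.6% of all genes. At 1.5-fold there were 1, 4 and 3 members, and 7.41%, 19.8% and 23.8% of all genes. The direction of the calls over all genes differed on the common-sum scale. Of the genes past 2-fold between IR and WI, 80.2% were higher in IR on the deposited scale. The share was 77.4% after rescaling by the median ratio between libraries and 24.5% on the common-sum scale. Between IR and sham the shares were 71.3%, 66.0% and 17.0% in the same order.

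Most members were below the sham level in the other samples with overlapping bounds. In the WI sample 8 of the 9 had a lower FPKM than in sham, Klf10 being the exception, and 47.3% of all genes were lower. The median log2 change of the 9 was -0.34, and that of all genes 0.02. In the IR sample 8 of 9 were again lower than in sham, Klf6 being the exception, with a median of -0.25 against 0.05 for all genes, of which 45.6% were lower. From WI to IR 3 of the 9 (Klf10, Klf13 and Klf15) were lower, against 47.5% of all genes, and the median was 0.20 against 0.03. On the common-sum scale Klf2, Klf3 and Klf4 were also lower in the IR than in the WI sample. The comparisons share libraries, so these counts are not independent.

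**Figure D2:**
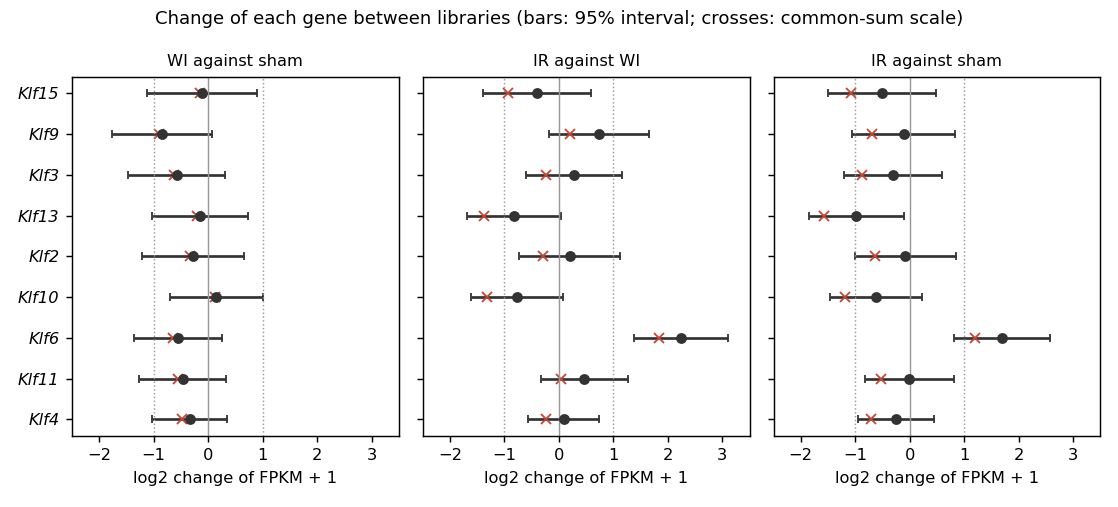
Change of each gene in log2(FPKM + 1) in 3 comparisons, with bars for the propagated 95% interval, dotted lines at 2-fold and crosses for the value after rescaling to a common sum. Klf6 lies past 2-fold in both comparisons with the IR sample (2.24 and 1.69), and crosses lie left of the points in those comparisons for all 9 genes.

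Klf9 and Klf15 are induced by glucocorticoids, and Klf15 drives amino acid breakdown and gluconeogenesis in the fasted liver. Klf9, on chromosome 19 from 23141226 to 23166911, stood at 33.7 FPKM in sham liver (95% bounds 17.6 to 49.8), 18.3 in WI liver (9.81 to 26.8) and 31.1 in IR liver (16.3 to 45.8). The WI sample was the low one and the bounds overlapped throughout. Its difference between WI and sham, -0.84 with an interval of -1.77 to 0.08, lay below that of all but 1.80% of genes. From WI to IR the difference was 0.73 (-0.19 to 1.65), or 0.21 on the common-sum scale. Klf15, on chromosome 6 from 90462626 to 90475209, stood at 78.4 FPKM in sham liver (39.1 to 118), 72.8 in WI liver (36.4 to 109) and 55.02 in IR liver (28.3 to 81.8). The IR sample was lowest, by -0.50 against sham with an interval of -1.50 to 0.49, and the bounds of all samples overlapped. That difference was -1.08, past 2-fold, on the common-sum scale.

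Other glucocorticoid-responsive genes were listed for comparison. All 7 (Fkbp5, Tsc22d3, Per1, Zbtb16, Sgk1, Tat and Dusp1) had a lower FPKM in the WI than in the sham sample, and 2 passed 2-fold, or 4 after rescaling to a common sum. Fkbp5, a co-chaperone of the glucocorticoid receptor, stood at 72.4 FPKM in sham liver, 13.2 in WI liver and 32.2 in IR liver. Zbtb16, a zinc finger repressor, had 7.93, 1.64 and 4.61 in the same order. Both had bounds that did not overlap between WI and sham, and both then rose 2-fold or more from WI to IR, with overlapping bounds. Those later changes were 0.72 and 0.77, inside 2-fold, on the common-sum scale. The median log2 change of the list was -0.97 between WI and sham and 0.53 between IR and WI. Between IR and sham it was -0.67, with 6 of the 7 lower and Fkbp5 and Sgk1 past 2-fold. On the common-sum scale the medians of these 3 comparisons were -1.02, -0.002 and -1.24. Of 7 listed Klf15 targets in amino acid and glucose metabolism, 1 was lower by at least 2-fold in both WI and IR than in sham. That gene was G6pc, the last enzyme of gluconeogenesis, at 335 FPKM in sham liver, 152 in WI liver and 78.1 in IR liver, with bounds that overlapped between WI and sham and were separate between IR and sham. From WI to IR its difference was -0.95 (-2.00 to 0.10), and -1.50, past 2-fold, after rescaling to a common sum. Tat, which starts the breakdown of tyrosine and is also in the glucocorticoid list, passed 2-fold against sham on the rescaled values only, at -1.02 in WI and -1.32 in IR. Prodh, which starts the breakdown of proline, had 116, 111 and 89.5. The median change of those targets was -0.41 between WI and sham, and -0.28 between IR and sham.

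Klf13, Klf10 and Klf11 belong to the branch that represses through the Sin3 complex. Klf13, known for the control of the chemokine gene Ccl5 in T cells, lies on chromosome 7 from 63886351 to 63938915. It stood at 12.2 FPKM in sham liver (95% bounds 6.46 to 17.9), 10.8 in WI liver (5.78 to 15.9) and 5.67 in IR liver (2.86 to 8.49). The IR sample was the low one, and its bounds overlapped those of the others. The difference between IR and sham was -0.98, with an interval of -1.86 to -0.11, and it lay just inside the 2-fold threshold at an FPKM that was 2.15 times higher in sham. With smaller pseudocounts, on the median-ratio scale and on the common-sum scale (-1.57) it passed that threshold, and on the common-sum scale its bounds in the IR and sham samples were separate. Between IR and WI the difference was -0.83 (-1.70 to 0.04), or -1.37 on the common-sum scale.

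Klf10, first found as an early gene of transforming growth factor beta and also under clock control, lies on chromosome 15 from 38294413 to 38300707. Klf10 stood at 7.06 FPKM in sham liver (3.70 to 10.4), 7.92 in WI liver (4.18 to 11.7) and 4.24 in IR liver (2.10 to 6.37). It was lowest in the IR sample, with a difference of -0.77 from WI (-1.61 to 0.07) and of -0.62 from sham (-1.46 to 0.22), and all bounds overlapped. Both differences passed 2-fold on the common-sum scale, at -1.31 and -1.19. Klf11, its near relative, on chromosome 12 from 24651371 to 24662782, stood at 4.56 FPKM in sham liver (2.34 to 6.78), 3.01 in WI liver (1.47 to 4.56) and 4.54 in IR liver (2.33 to 6.74). The WI sample was lowest, by -0.47 (-1.27 to 0.33), and the sham and IR samples differed by -0.01 (-0.82 to 0.81). Among immediate targets of transforming growth factor beta, Tgif1, a homeobox repressor, rose 2-fold or more from WI to IR and from sham to IR. Skil, a repressor of Smad proteins, stood at 6.05 FPKM in sham liver, 2.07 in WI liver and 2.46 in IR liver. It was lower than in sham by 2-fold or more in both the WI and the IR sample. From WI to IR its difference was 0.17. Tgif1 was inside 2-fold in both comparisons, at 0.90 and 0.84, on the common-sum scale. Smad7, the inhibitor of the pathway, stood at 2.50 FPKM in sham liver, 2.62 in WI liver and 1.27 in IR liver, within 2-fold in FPKM + 1 and -1.19 from WI to IR after rescaling.

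Klf2 and Klf4 keep endothelium quiet and are induced by laminar flow. Klf2, on chromosome 8 from 72319062 to 72321654, stood at 8.56 FPKM in sham liver (95% bounds 4.19 to 12.9), 6.89 in WI liver (3.30 to 10.5) and 8.04 in IR liver (3.96 to 12.1). The bounds overlapped in every pair, and the difference between WI and sham was -0.28 with an interval of -1.21 to 0.65. Klf4, on chromosome 4 from 55527137 to 55532475, was the lowest member in every sample, with 1.49 (0.598 to 2.38), 0.966 (0.350 to 1.58) and 1.10 (0.413 to 1.78) in the same order. Its difference was -0.34 between WI and sham (-1.03 to 0.35) and 0.09 between IR and WI (-0.56 to 0.74). On the common-sum scale both were lower in the IR than in the WI sample, by -0.30 and -0.23.

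The kinases and MEF2 factors that act upstream of Klf2 and Klf4 were listed as 6 genes, of which 4 passed the filter and 0 changed at least 2-fold in any comparison on the deposited scale. Mef2a stood at 6.63 FPKM in sham liver, 4.13 in WI liver and 2.94 in IR liver, a difference of -0.95 between IR and sham (-1.78 to -0.12). After rescaling to a common sum Mef2a (-1.54) and the kinase gene Map2k5 (-1.07) passed 2-fold between IR and sham. Among the listed endothelial targets, Thbd and Sele rose 2-fold or more from WI to IR. Thbd, thrombomodulin, which Klf2 induces, stood at 3.58 FPKM in sham liver, 1.93 in WI liver and 21.5 in IR liver. Sele, E-selectin, which binds leukocytes and which Klf2 holds down, had 0.0249, 0.0340 and 2.49. Nos3, the endothelial nitric oxide synthase and another gene that Klf2 induces, was within 2-fold in FPKM + 1 in every comparison. Vcam1, a leukocyte adhesion molecule, fell from 30.5 in sham liver to 7.76 in WI liver and had 10.8 in IR liver. Sele passed the filter only through the IR sample.

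Klf3, a repressor that works with the CtBP proteins, lies on chromosome 5 from 64803523 to 64830129. Klf3 stood at 20.8 FPKM in sham liver (95% bounds 11.2 to 30.5), 13.6 in WI liver (7.29 to 20.0) and 16.7 in IR liver (8.98 to 24.5). The sham sample was highest, by a difference of -0.58 for WI with an interval of -1.47 to 0.32, and the bounds of all samples overlapped. Its partner Ctbp1 had 14.4, 15.8 and 13.4 in the same order. Of 11 listed co-regulators, among them Sin3a, Sin3b, Hdac1 and Ep300, 0 changed at least 2-fold in any comparison on the deposited scale. After rescaling to a common sum, Sin3a, Ep300, Kat2b and Wwp1 were lower by 2-fold or more from WI to IR, and these 4 and Crebbp from sham to IR. In the IR sample 9 of the 11 were lower than in sham, with a median of -0.35 against 0.05 for all genes on the deposited scale. Ep300, an acetyltransferase, stood at 4.45 FPKM in sham liver, 3.04 in WI liver and 1.80 in IR liver, a difference of -0.96 between IR and sham (-1.66 to -0.25) and of -1.55 after rescaling.

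**Figure D3:**
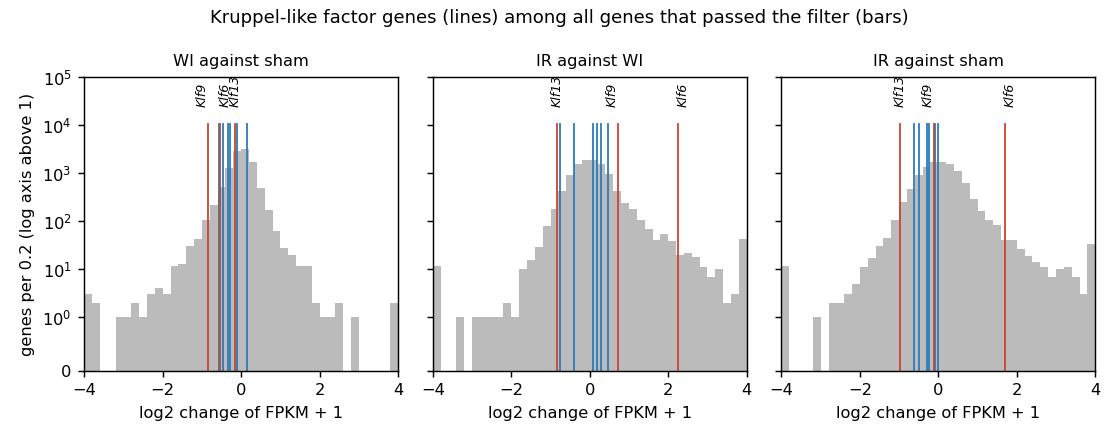
Number of genes per bin of 0.2 in the log2 change of FPKM + 1 (log axis above 1), for the 10792 genes that passed the filter, with lines for the 9 Kruppel-like factor genes, in red for Klf6, Klf9 and Klf13. The outermost bins also hold all larger changes, and Klf6 lies in the upper tail of both comparisons with the IR sample, past 98.8% and 98.1% of the genes.

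The rest of the family was mostly at low levels. The files hold 17 Kruppel-like factor genes, and of the other 8 only Klf1, Klf7, Klf12 and Klf16 passed the filter, with 0 past 2-fold on the deposited scale. Klf12, a CtBP-binding repressor like Klf3, stood at 4.34 FPKM in sham liver (95% bounds 2.30 to 6.38), 3.87 in WI liver (2.03 to 5.70) and 1.79 in IR liver (0.861 to 2.72). Its difference was -0.93 between IR and sham (-1.67 to -0.20) and -0.80 between IR and WI (-1.53 to -0.08), with overlapping bounds. After rescaling to a common sum these were -1.52 and -1.34, past 2-fold as for Klf13. Klf1, the erythroid member, had 2.17, 2.13 and 1.75, and Klf7 and Klf16 had 1.23 and 0.956 in sham liver. Klf5 was at 0.171 FPKM or less, Klf8 at 0.0192 or less, and Klf14 and Klf17 were listed at 0 in every sample. Among the 9 SP genes, which share the zinc fingers, Sp1 to Sp4 passed the filter and 0 of these 4 changed at least 2-fold. Sp3 was the highest, at 10.7 FPKM in sham liver, 9.88 in WI liver and 9.48 in IR liver, and Sp1 had 5.49, 5.01 and 5.02.

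Klf6 was set beside other early genes of the reperfused liver. Of 12 immediate early genes, 6 rose 2-fold or more from WI to IR (Jun, Junb, Atf3, Ier3, Btg2 and Myc) and 0 fell, with a median of 1.20 against 0.03 for all genes. Btg2 and Myc had fallen 2-fold or more from sham to WI, and against sham Fos, Junb, Atf3 and Ier3 were higher by 2-fold or more in the IR sample, while Jun, Btg2 and Myc were within 2-fold. Jun was inside 2-fold on the common-sum scale, at 0.95. Atf3, a stress-induced transcription factor, stood at 8.72 FPKM in sham liver, 5.76 in WI liver and 114 in IR liver. Fos differed in order, with 8.31, 28.9 and 40.6, so that it rose 2-fold or more from sham to WI, where Klf6 was at 5.89 and 3.70. Among 6630 genes that reached 5 FPKM in 1 or more samples, the 3 whose pair of changes lay closest to that of Klf6 were Csrnp1, Rbpms and Srgn. Csrnp1, a nuclear protein, had 8.17, 5.41 and 29.3 in the sham, WI and IR samples and lay at a Euclidean distance of 0.0342 on the log2 scale. Rbpms, an RNA-binding protein, had 13.5, 9.09 and 50.4 (distance 0.108), and Srgn, the granule proteoglycan of leukocytes and endothelium, had 23.3, 16.9 and 85.2 (distance 0.113). This likeness rests on 3 libraries.

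Of 7 listed targets of Klf6, 6 passed the filter and 1 rose 2-fold or more from WI to IR. That gene was Cdkn1a, the cell cycle inhibitor p21, at 21.5 FPKM in sham liver, 0.619 in WI liver and 47.5 in IR liver. Eng, the endothelial coreceptor for transforming growth factor beta, had 22.7, 18.4 and 15.7, and Tgfb1 had 4.96, 4.09 and 4.59. Becn1 and Atg7, autophagy genes that Klf6 is known to raise, were at 19.7, 21.6 and 23.3 and at 7.39, 9.02 and 9.25. The median change of the list between IR and WI was 0.07, and -0.42 on the common-sum scale. Between IR and sham Cdkn1a differed by 1.11, or 0.55 on the common-sum scale. Eng differed by -0.50, or -1.08, past 2-fold, on that scale.

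**Figure D4:**
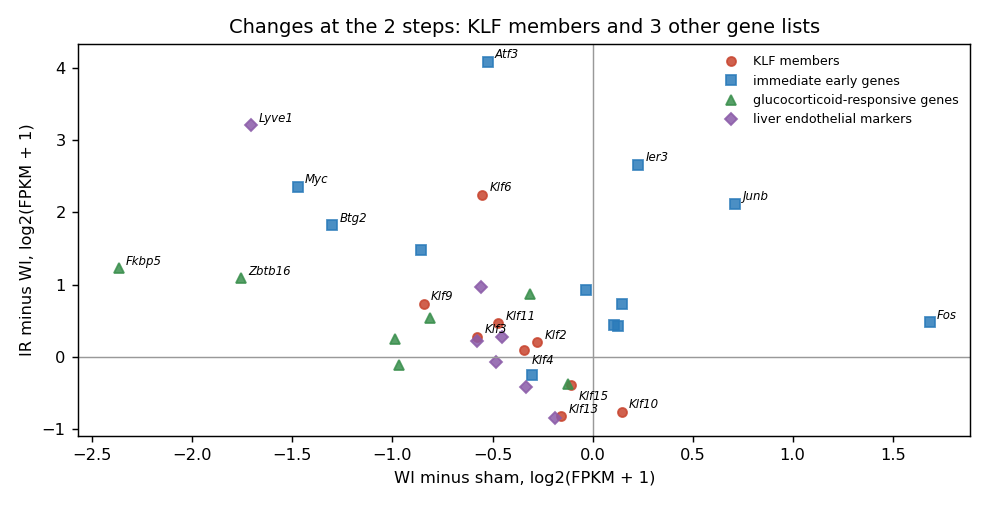
Change from sham to WI (horizontal axis) against change from WI to IR (vertical axis), both in log2(FPKM + 1), for the 9 Kruppel-like factor genes and for immediate early genes, glucocorticoid-responsive genes and liver endothelial markers that passed the filter. The WI sample enters both axes with opposite sign. Klf6 lies at -0.55 and 2.24, and Klf9 at -0.84 and 0.73. The 7 glucocorticoid-responsive genes spread from -2.37 (Fkbp5) to -0.12 (Tsc22d3) on the horizontal axis. On the vertical axis they spread from -0.39 (Tsc22d3) to 1.22 (Fkbp5).

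Markers of other cells moved between the same libraries, and in whole liver fewer cells of a type and less RNA per cell cannot be told apart. The summed FPKM of 6 neutrophil markers was 25.3 in sham liver, 19.3 in WI liver and 460 in IR liver. All 5 that passed the filter rose 2-fold or more beside Klf6. Of these, Cxcr2 (0.127, 0.163 and 3.65) passed only through the IR sample, so the filter itself favoured its rise. Mpo did not pass. Mpo, a defining marker of the granules of early neutrophils, was listed at 0 in IR liver. For 7 endothelial markers the sums were 129, 91.8 and 114. All 7 were lower in the WI than in the sham sample, with a median of -0.48 beside -0.28 for Klf2 and -0.34 for Klf4, and Lyve1 passed 2-fold. Lyve1 then rose from 2.73 in WI liver to 33.4 in IR liver beside Klf6, with separate bounds, and Kdr fell 2-fold or more from sham to IR. The sums of 6 macrophage markers were 281, 156 and 102, and 4 of the 6 fell at least 2-fold from sham to IR. Marco (20.9, 12.6 and 25.3) and Cd68 (18.5, 12.3 and 18.5) did not, and both were higher in the IR than in the WI sample. Those of 6 stellate cell markers were 15.6, 13.1 and 12.2, with none at 0. Of these 6, 4 were higher in the IR than in the sham sample, with a median of 0.12, and Lrat fell 2-fold or more. The sums of 6 lymphocyte markers were 4.04, 2.81 and 1.57. Only 1 of these 6 passed the filter, Cd79a with 1.59, 0.912 and 0.734, so these sums lie near the floor. The contribution of these cells to the values of the Kruppel-like factor genes was not tested.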

How the data were processed

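The data were mRNA profiles of mouse liver, 1 library for each of 3 groups given by the labels. The authors mapped reads to mm10 with TopHat2 2.0.9 and computed the deposited FPKM per gene, with 95% bounds and a status, by Cuffdiff of Cufflinks 2.0.2 at default parameters. The annotation and strand setting are not given in the sources used here.

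From these, log2(FPKM + 1) was compared between libraries for genes that reached 1 FPKM in 1 or more samples, and called at 2-fold. This scale understates changes of low genes. Intervals of a change were propagated to first order from the bounds. The files hold no counts. Genes at the precision of a single fragment (within 0.02 of its value) gave an FPKM per fragment 0.901 times that of the sham sample in the WI sample (111 genes) and 1.26 times in the IR sample (117 genes), so the IR values rested on the fewest fragments per unit of FPKM.

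The members and lists were chosen with earlier results of these data known. Genes named are the 9 members, genes of the fixed lists, and the 3 nearest in pattern to a member past 2-fold. Values for genes within 2-fold are examples chosen after they were seen. A result for some listed targets is not reported here. The files count gene starts from 0 (10559 of 21526 starts lay 1 below RefSeq), so 1 was added. The alternatives were other pseudocounts, filters, fold thresholds, scalings, a status filter and other bounds. Functions were tested on simulated data. Python 3.11.15, numpy 2.4.6, pandas 2.3.3 and matplotlib 3.10.9 were used.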

Additional observations from a re-analysis of the deposited data

How the results depend on the processing

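No paired analysis was possible because each group has 1 library, and no library could be left out. Of 57 recomputed counts of members, 44 stayed within 1.5 times. Past 2-fold, the count between IR and WI went from 1 to 3 on the common-sum scale (Klf6, Klf10 and Klf13). Between IR and sham it went from 1 to 4 on that scale (also Klf15). It went to 2 (Klf6 and Klf13) with a pseudocount of 0.1, of 0.01 or none and on the median-ratio scale. On the common-sum scale 1570 and 1873 of all 10792 genes passed 2-fold in these 2 comparisons. Of those, 1185 and 1554 were lower in the IR sample. A threshold of 1.5-fold gave 1 (Klf9), 4 and 3 members for WI and sham, IR and WI, and IR and sham, and 4-fold gave 0 between IR and sham. Bounds widened 1.5 times left 0 members separate in both comparisons with the IR sample, and the interval of the change, a rule added after seeing the data, took 2 between IR and sham. On the common-sum scale the 1 member separate from sham in the IR sample was Klf13 and no longer Klf6.

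All 135 recomputed member changes moved by less than their interval, and 3 took the other sign (Klf2, Klf3 and Klf4 between IR and WI, common sum). Genes past 2-fold in all numbered 200, 778 and 809. They were 276, 1570 and 1873 on the common-sum scale, 447, 1331 and 1505 with a pseudocount of 0.01, 800, 2132 and 2572 at 1.5-fold, and 24, 194 and 166 at 4-fold. Genes with separate bounds went from 390 to 226 and from 412 to 249 with FPKM of at least 1 in all samples, and to 109 and 97 with widened bounds. The members' bounds lay 46.3% to 63.7% of the FPKM away from it, so overlapping bounds do not show that values were alike.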

Other observations

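Genes of the circadian clock and its output were compared between the samples. Of 10 listed genes, 2 rose at least 2-fold from sham to WI, and between WI and IR 2 rose and 4 fell. On the common-sum scale the rise of Nr1d1 from WI to IR was 0.92, inside 2-fold, and 5 genes fell. Nr1d1, a nuclear receptor of the clock, stood at 5.06 FPKM in sham liver, 16.7 in WI liver and 47.0 in IR liver. Dbp, a clock output factor, had 20.0, 49.7 and 40.0. Per2 and Per3, negative limb genes, had 4.56, 5.37 and 1.94, and 5.29, 8.15 and 2.12. Arntl, which with Nr1d1 rose 2-fold or more from WI to IR, had 0.896, 0.226 and 1.91. Its bounds in IR and WI were separate, and it passed the filter only through the IR sample. Klf10, a clock-controlled member, had 7.06, 7.92 and 4.24 in the same order, with bounds that overlapped in every pair. The changes of Arntl had the opposite sign to those of Klf10 from sham to WI and from WI to IR. The time of day at which each liver was taken is not given in the sources used here.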
